A study of Citrus maxima with 6 samples.

Results

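A set of 6 genes of ripe pummelo pericarp was followed across RNA-Seq libraries of an orange-pericarp mutant (MT) and its wild type (WT). They comprise 3 matches to regulators of epidermis, stomata or organ polarity and 3 matches to enzymes of lipid metabolism. The regulators are HDG5 (Cs3g09300), MUTE (Cs9g06130) and KAN2 (Cs3g09270). The enzymes are fatty acyl-CoA reductase 3 (FAR3, Cs8g15220), a GDSL esterase/lipase (Cs2g04220) and a lipase (Cs3g23440). These are 6 of the 29406 genes in the deposited table. They were picked by identifier because their RPKM differed between MT and WT, so that difference is given below as a description, and where calls of a fit over all genes are counted, nothing is read from them. The names are best Swiss-Prot matches given by the study, and no citrus work stands behind the functions stated here. RPKM is the read number of a gene scaled by its exon length and by the total of the library.

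The MT group held 3 libraries of ripe pericarp from the orange-pericarp mutant of 'Guanxi' pummelo, and the WT group held 3 libraries of ripe pericarp from 'Guanxi' pummelo itself. MT is a spontaneous bud mutation that was kept by grafting, so its libraries go back to a single bud lineage, and neither group was treated. The study calls the libraries biological replicates without saying whether they came from separate trees. The standard errors and tests below therefore measure only the spread between these libraries, which may be partly technical. The tissue label was not checked against pericarp markers, because names were at hand only for genes that the study had called changed. Whole pericarp was sequenced, so a lower value from fewer cells of a type and one from less RNA per cell cannot be told apart.

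The outer cell layer of a plant organ makes the cuticle, a sheet of cutin polyester covered and filled with waxes. In Arabidopsis, homeodomain-leucine zipper proteins of class IV, among them HDG5, are active in this layer. Stomata arise from it through consecutive bHLH factors, of which MUTE ends the dividing stage and commits a cell to become a guard mother cell. KANADI proteins such as KAN2 specify the abaxial, or lower, side of lateral organs. FAR3 of Arabidopsis, also known as CER4, reduces very-long-chain acyl groups to the primary alcohols of wax. GDSL esterases and lipases act on many esters, and the family includes enzymes that polymerize cutin.

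The study designed qRT-PCR primers for 3 of the 6 genes, and these short oligonucleotides are the only member sequences in the files used here. The study used them on samples of another year, and they were not aligned to any transcript here. All letters are in lower case because no part of them is marked. The qRT-PCR values themselves were not analysed.
KAN2 forward: ttcagcagggaagcttggtt
KAN2 reverse: gagacggcaggtttatagcagaa
GDSL forward: cgcttaccccattgatattcg
GDSL reverse: gcagccgtgttggtgttg
FAR3 forward: tcaggatcacgcctaccgtta
FAR3 reverse: cgggctttccatctttgttaat

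The libraries were scaled to between 9253681 and 11108186 reads. Pearson's r of log2 values across the 16719 genes tested was 0.946 to 0.961 between MT libraries and 0.970 to 0.978 between WT libraries. It was 0.900 to 0.968 between genotypes. MT3 was nearer to WT1, WT2 and WT3, at 0.968, 0.965 and 0.964, than to MT1 at 0.961 or MT2 at 0.946. MT2 stood apart from WT, at 0.900 to 0.920. The median gene was 0.15 higher in MT on the log2 scale, and the log2 differences below are given relative to it. They are on the scale of log2(RPKM + 0.5), which understates differences of weakly expressed genes.

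HDG5 was the regulator with the highest MT to WT ratio. Its RPKM was 16.5, 25.3 and 12.7 in MT1, MT2 and MT3, against 2.02, 2.37 and 1.93 in WT1, WT2 and WT3. All MT libraries lay above all WT libraries, and the lowest MT value was 5.36 times the highest WT value. The mean RPKM was 18.2 ± 6.48 in MT and 2.11 ± 0.233 in WT (SD, n = 3 each), a ratio of 8.63 that stayed between 6.93 and 9.92 after leaving out any single library. The log2 difference was 2.64 with a standard error of 0.26. These values rest on 1789 reads in MT and 201 in WT over an exon length of 3209 bp. Among all 29406 genes, those without a read included, HDG5 stood between the percentiles 73.9 and 83.5 in the MT libraries. In the WT libraries it stood between 55.7 and 57.9. Its spread differed between the genotypes. In MT the coefficient of variation was 35.7%, where the counting of reads alone would give about 4.10%. In WT it was 11.1%, near the 12.2% of counting alone.

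KAN2 was also higher in MT, by a smaller factor. Its RPKM was 20.2, 31.0 and 18.5 in MT1, MT2 and MT3, against 9.97, 7.17 and 10.7 in WT1, WT2 and WT3. The libraries did not overlap, with a factor of 1.73 between the lowest MT and the highest WT value. The mean was 23.2 ± 6.80 in MT and 9.27 ± 1.85 in WT (SD, n = 3 each), a ratio of 2.51, from 1342 and 519 reads. The log2 difference of 1.11, with a standard error of 0.24, was the smallest of the 6 genes in size. Unlike HDG5, KAN2 varied beyond counting in both genotypes, with a coefficient of variation of 29.3% in MT and 19.9% in WT, where counting alone would give 4.73% in MT and 7.60% in WT.

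MUTE went the other way. Its RPKM was 2.25, 3.67 and 5.62 in MT1, MT2 and MT3, against 24.99, 21.2 and 23.3 in WT1, WT2 and WT3. All MT libraries lay below all WT libraries, and the lowest WT value was 3.78 times the highest MT value. The mean was 3.85 ± 1.69 in MT and 23.2 ± 1.88 in WT (SD, n = 3 each), so that WT was 6.03 times MT, or 4.99 to 7.83 times with each library left out in turn. The log2 difference was -2.67 with a standard error of 0.29. In Arabidopsis MUTE is a factor of a short stage of the stomatal lineage. In the WT libraries this match stood between the percentiles 83.0 and 84.5 of all genes. That ranking includes the 9554 to 10853 genes without a read in a WT library. In the MT libraries MUTE stood between 55.9 and 63.3. The exon length is only 800 bp, and 93 reads in MT stand against 550 in WT. The WT spread of 8.12% was near the 7.39% of counting alone, while the MT spread of 44.0% exceeded the 18.0% of counting.

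The 2 regulators on the same side, HDG5 and KAN2, did not keep a fixed ratio to each other. The RPKM of HDG5 divided by that of KAN2 was 0.816, 0.817 and 0.688 in MT1, MT2 and MT3, against 0.203, 0.330 and 0.181 in WT1, WT2 and WT3. HDG5 was the less abundant of the pair per exon length in all 6 libraries. Both had their highest value in MT2 and their lowest MT value in MT3. In WT their order differed, for WT2 held the highest HDG5 and the lowest KAN2 value.

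**Figure D1:**
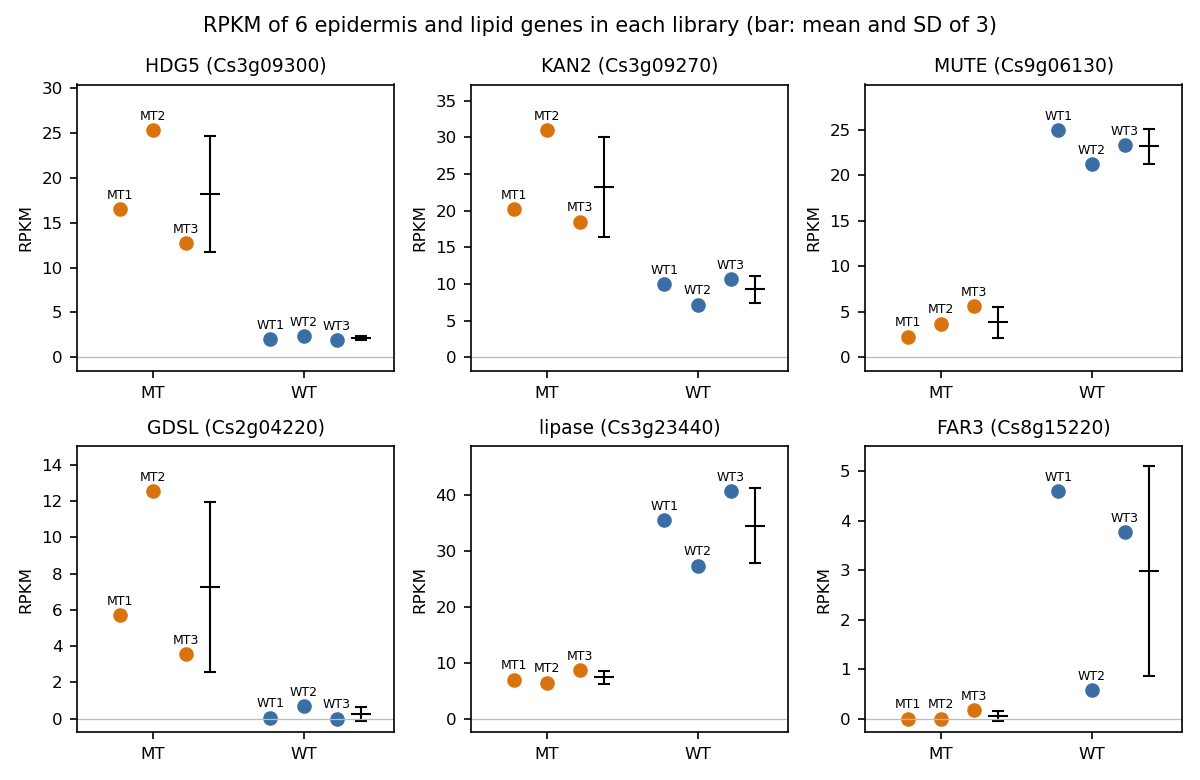
RPKM of each of the 6 genes in every library (vertical axis, linear, a separate scale per gene), with the MT libraries on the left and the WT libraries on the right; points are libraries and the bar beside them is the mean and SD of 3. HDG5, KAN2 and the GDSL gene lie higher in MT and MUTE, the lipase and FAR3 lie lower, with no overlap in any gene, and WT2 at 0.574 RPKM stands apart from WT1 and WT3 for FAR3.

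Of the lipid genes, the GDSL esterase/lipase was nearly silent in WT. Its RPKM was 5.70, 12.5 and 3.57 in MT1, MT2 and MT3, against 0.0640, 0.702 and 0 in WT1, WT2 and WT3, and no libraries overlapped. Of its 13 WT reads, 12 were in WT2. By exact Poisson 95% intervals, which cover counting error only, WT2 lay between 0.363 and 1.23 RPKM, above the upper limits of 0.356 in WT1 and 0.211 in WT3. With 375 reads in MT, the reads per library total were 27.9 times higher in MT, and counting error alone gives this ratio a 95% interval from 16.1 to 52.8 (Clopper-Pearson). Without WT2 the ratio rests on 1 WT read and was 239, with an interval of 42.6 to 9458. The log2 difference was 3.16 with a standard error of 0.50.

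FAR3 was nearly silent in the other genotype. It had no read in MT1 and MT2 and an RPKM of 0.178 in MT3, against 4.59, 0.574 and 3.76 in WT1, WT2 and WT3. WT2 lay far below the other WT libraries, with a Poisson 95% interval of 0.275 to 1.06 RPKM where WT1 had 3.60 to 5.77 and WT3 had 2.92 to 4.78. In MT1 and MT2 the count of 0 has Poisson upper limits of 0.193 and 0.217 RPKM. WT reads per library total were 51.8 times those of MT, with an exact interval, for counting error only, of 17.4 to 254. The value was 73.3 without WT2, with an interval of 24.6 to 360, and at least 35.3-fold higher in WT without MT3, against 3 reads over both remaining MT libraries. The log2 difference was -2.52 with a standard error of 0.57, the widest of the 6 genes.

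The third lipid gene, Cs3g23440, has its best match to a lipase of the fungus Rhizomucor miehei, so the name says little about its role in citrus. Its RPKM was 7.02, 6.45 and 8.69 in MT1, MT2 and MT3, against 35.5, 27.3 and 40.6 in WT1, WT2 and WT3. The groups did not overlap, and the lowest WT value was 3.15 times the highest MT value. The mean was 7.38 ± 1.16 in MT and 34.5 ± 6.70 in WT (SD, n = 3 each), so that WT was 4.67 times MT, from 608 and 2750 reads. The log2 difference was -2.29 with a standard error of 0.19, the narrowest of the 6 genes. It was the only one of the 6 with a smaller coefficient of variation in MT than in WT among those with at least 20 reads in each library, at 15.7% in MT and 19.4% in WT.

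Across the 6 genes, 3 were higher and 3 lower in MT, and each side held both a regulator and a lipid gene. In the limma fit over all genes, 2 of the 6 passed an adjusted p of 0.05, HDG5 higher and Cs3g23440 lower in MT, where 0.0359% of the 16719 genes tested did, 0.0179% being higher and 0.0179% lower. With the limit set to 0.1, 5 of the 6 passed, 3 higher and 2 lower, with FAR3 as the exception. Of all genes 2.55% did, 2.02% on the higher and 0.538% on the lower side. The split over all genes depended on the scaling of the libraries. At 0.05 it was 3 higher and 3 lower, or 4 higher and 7 lower after median-ratio scaling, and with the looser limit of 0.1 it was 337 higher and 90 lower, or 155 higher and 99 lower after that scaling. The MT and WT libraries did not overlap in 6 of the 6, as in 28.6% of the genes tested. Because the genes were chosen from this very contrast, nothing is read from these counts. The count at 0.05 depended on single libraries. It was 5 without MT3, where 864 genes in all passed, and 1 without MT2, where 11 did. It was 0 without MT1, where 5 genes in all passed, and 0 without WT1, WT2 or WT3, where none did, with 2696, 2970 and 2261 genes at an unadjusted p under 0.05. The log2 differences themselves moved less. Without MT3 they were 2.85 for HDG5, 1.25 for KAN2, -2.96 for MUTE, 3.53 for the GDSL gene, -2.67 for FAR3 and -2.41 for Cs3g23440. Without MT2 they were 2.41 for HDG5, 0.92 for KAN2, -2.64 for MUTE, 2.73 for the GDSL gene, -2.41 for FAR3 and -2.17 for Cs3g23440.

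**Figure D2:**
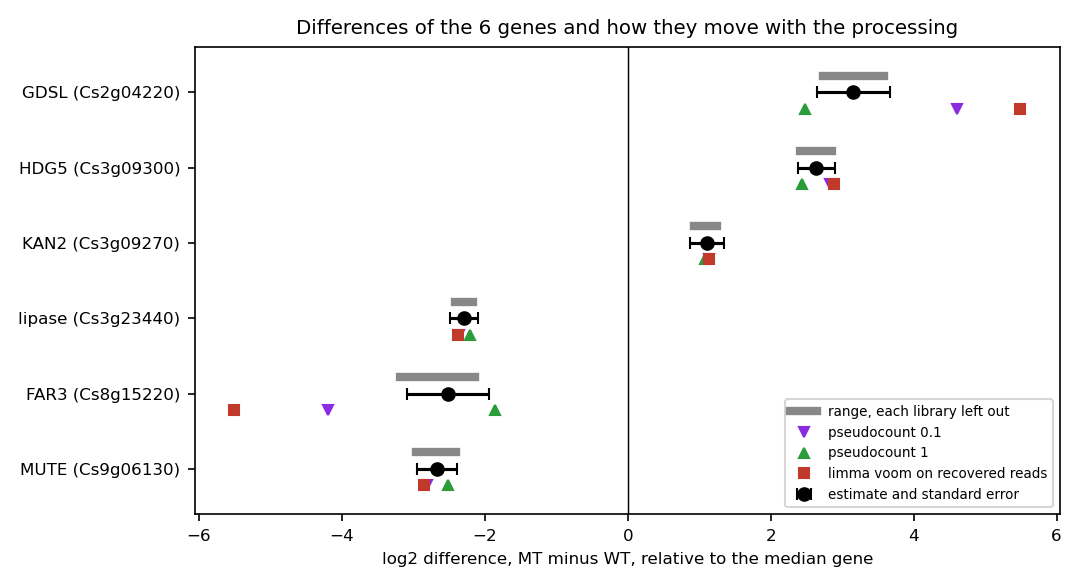
Difference of log2(RPKM + 0.5) between MT and WT relative to the median gene (horizontal axis) for the 6 genes, with black points for the estimate and its standard error, grey bars for the range with each library left out in turn, and coloured symbols for other pseudocounts and for limma voom. HDG5, KAN2, MUTE and the lipase keep nearly the same value throughout, whereas the GDSL gene moves from 2.48 to 5.49 and FAR3 from -1.85 to -5.51 with the pseudocount or the fit.

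Among the 6 genes, the library nearest to the other genotype was mostly the same. MT3 was the MT library nearest to WT in 6 of the 6 genes, and in 54.5% of the 4789 tested genes whose libraries did not overlap. MT2 was the furthest in 4 of the 6, and in 71.7% of those genes. The exceptions were MUTE, lowest in MT1, and FAR3, with no read in MT1 or in MT2. WT2 was the WT library nearest to MT in 5 of the 6 genes, the exception being KAN2, and in 35.6% of the 4789 genes, where WT1 was the nearest in 36.9%. MT3 and WT2 were both the nearest in 5 of the 6 genes and in 22.9% of the 4789. What distinguishes MT3 and WT2 was not tested.

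Matches to epidermis, stomata, polarity and lipid proteins were looked up among 291 listed genes that the study had called changed with DESeq. In the study's own count, more genes were lower than higher in MT, the reverse of the limma split at an adjusted p of 0.1. All of the listed genes were selected on the present libraries, so their direction is not independent evidence. In addition to the 6 genes, 4 matched epidermis, stomata or polarity proteins and 15 matched lipid proteins. None of the 19 passed an adjusted p of 0.05 in limma, while 17 had an unadjusted p under 0.05, as 21.8% of all genes tested did, and 11 passed an adjusted p of 0.1, as 2.55% did. Since they were selected on these libraries, nothing is read from these shares. Over all genes limma voom called 0. Of the 4 epidermis, stomata or polarity genes 3 were higher and 1 lower in MT, with a median log2 difference of 1.39. The 15 lipid genes lay on both sides, 7 higher and 8 lower, from -2.33 to 4.28 on the log2 scale, so that their median of -0.98 gives no common direction. The median of all genes tested is 0 by construction.

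The 4 matches to epidermis, stomata or polarity proteins included EPIDERMAL PATTERNING FACTOR-like protein 9 (Cs7g16890), in Arabidopsis the secreted peptide STOMAGEN that promotes stomata. It was at 1.01, 1.59 and 0.573 RPKM in MT1, MT2 and MT3 and had no read in any WT library. With 29 reads in MT, it was at least 9.34-fold higher in MT, counted against 3 reads over the WT group. Thus 2 genes whose Arabidopsis counterparts act in favour of stomata, MUTE and STOMAGEN, lay on opposite sides. ASPARTIC PROTEASE IN GUARD CELL 1 (orange1.1t00502) averaged 10.6 ± 4.21 RPKM in MT and 2.96 ± 0.520 in WT (SD, n = 3 each). Auxin response factor 4 (Cs8g16930), which in Arabidopsis acts with KANADI proteins in abaxial identity, averaged 2.93 ± 1.11 in MT and 0.685 ± 0.226 in WT (SD, n = 3 each), on the same side as KAN2. The potassium channel subunit KAT3 (Cs4g20090) averaged 6.79 ± 3.66 in MT and 15.3 ± 2.44 in WT (SD, n = 3 each).

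Lipase-type genes were found on both sides. Apart from the GDSL gene and Cs3g23440, there were 7 matches to lipases, GDSL esterases, phospholipase or patatin, of which 5 were higher and 2 lower in MT. Among all 4789 genes without overlap 81.3% were higher, so nothing is read from this split. With the GDSL gene, MT2 held the highest value in each of the 6 higher ones, and WT2 the highest WT value in 5 of them. Among all genes wholly higher in MT, MT2 held the highest value in 74.3% and WT2 the highest WT value in 33.1%. GDSL esterase/lipase APG (Cs1g16000) was at 23.3, 69.3 and 25.6 RPKM in MT1, MT2 and MT3, against 0.656, 4.19 and 0.293 in WT1, WT2 and WT3. Triacylglycerol lipase 2 (Cs2g25040) was at 4.98, 14.5 and 4.97 in MT1, MT2 and MT3, against 0.0808, 0.739 and 0.217 in WT1, WT2 and WT3. GDSL esterase/lipase EXL1 (Cs3g26480), whose Arabidopsis relatives are extracellular lipases, had a log2 difference of 3.37 with a standard error of 0.55. These genes and Cs2g04220 shared a WT2 value above both other WT libraries. The exception among the 6 was EXL3 (Cs1g25830), with 14.3 to 18.9 RPKM in WT and its highest WT value in WT1. Its MT1 and MT2 values were nearly equal, at 59.60 and 59.62 RPKM.

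Genes of lipid synthesis, not all of them specific to surface lipids, lay on both sides. FAR3 acts on chains that are elongated by 3-ketoacyl-CoA synthases, the condensing enzymes of fatty acid elongation. KCS21 (Cs7g28170) averaged 112 ± 24.0 RPKM in MT and 44.1 ± 3.98 in WT, while KCS11 (Cs9g07920) averaged 6.46 ± 5.51 in MT and 20.6 ± 5.31 in WT (SD, n = 3 each). Both matches to DCR, an acyltransferase needed for cutin in Arabidopsis, were lower in MT with a wide spread. Cs9g17800 was at 655, 97.3 and 972 RPKM in MT1, MT2 and MT3, against 1564, 1182 and 1383 in WT1, WT2 and WT3, and Cs9g17750 was at 711, 97.4 and 978 in MT1, MT2 and MT3, against 1603, 1229 and 1630 in WT1, WT2 and WT3. The 2 rows may be near-identical copies, in which case reads that map to both are missing from these values. The omega-6 desaturase match orange1.1t02024, which in the endoplasmic reticulum makes linoleic acid, averaged 5.72 ± 2.17 in MT and 27.3 ± 7.64 in WT (SD, n = 3 each). Its direction and that of the acyl carrier protein Cs9g05030 were those of FAR3.

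**Figure D3:**
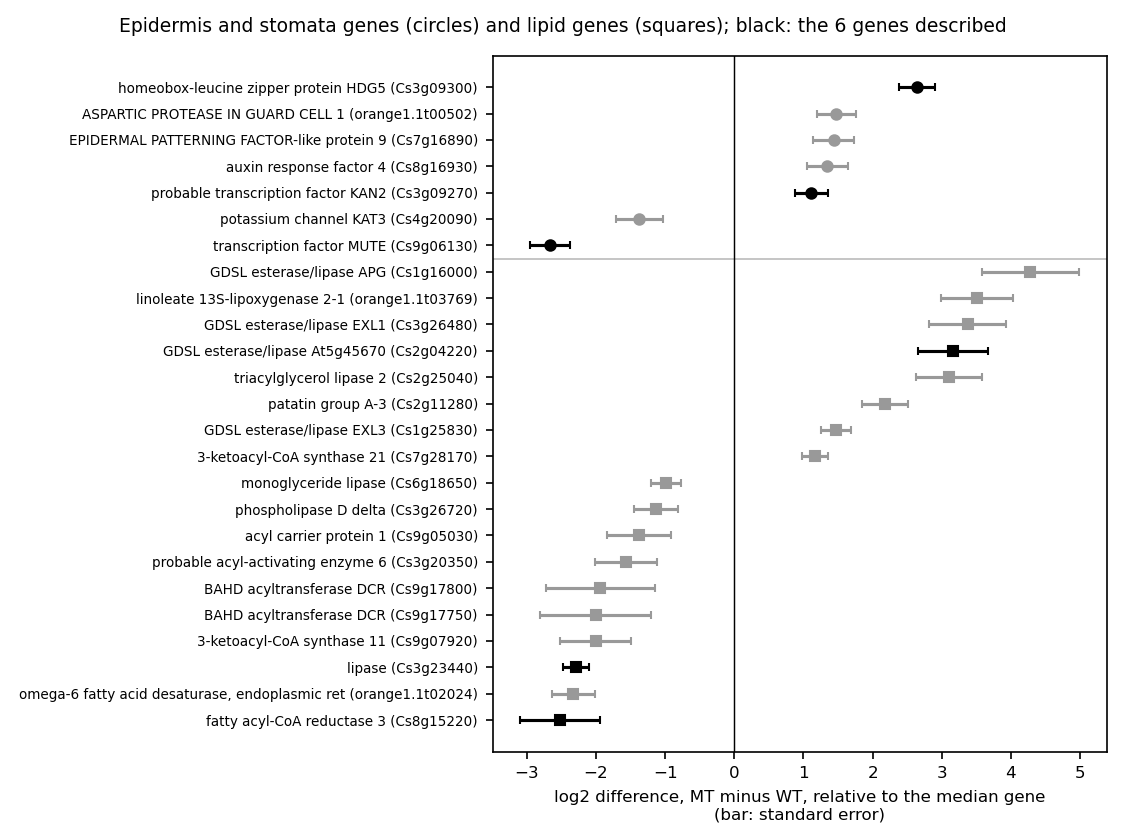
Difference of log2(RPKM + 0.5) between MT and WT relative to the median gene, with its standard error. Circles in the upper block are 7 epidermis, stomata and polarity genes, and squares in the lower block are 18 lipid genes. Black symbols are the 6 genes described and grey symbols the others from the study's list of changed genes. In the upper block 5 genes lie above 0 and 2 below, in the lower block 8 above and 10 below, and the value of Cs7g16890 depends on the pseudocount because WT has no read.

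A pair of matches to genes of other cell types were read beside these. A match to (R)-limonene synthase (Cs5g22980), an enzyme of the essential oil of citrus peel, was at 0.0494, 0.0555 and 0.280 RPKM in MT1, MT2 and MT3, against 4.03, 1.68 and 2.76 in WT1, WT2 and WT3. Its lowest WT value was in WT2 and its highest MT value in MT3, the order seen for FAR3. Xylem serine proteinase 1 (orange1.1t00281) averaged 7.15 ± 2.38 in MT and 15.2 ± 3.996 in WT (SD, n = 3 each). Both were lower in MT in all 3 libraries. They come from the same list of changed genes, and their part in the differences of the regulator and lipid genes was not tested.

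KAN2 and HDG5 have close identifiers, Cs3g09270 and Cs3g09300, which led to a comparison with the rows that carry neighbouring numbers. These neighbours were not chosen for how they behaved. Of the 2 rows numbered between the pair, Cs3g09280 was at 17.9, 19.4 and 6.05 RPKM in MT1, MT2 and MT3, against 8.23, 23.2 and 9.94 in WT1, WT2 and WT3, and overlapped between genotypes. The other, Cs3g09290, had no read in any library. Around all 6 genes, within 30 identifier numbers on either side, there were 33 other rows, of which 22 were abundant enough to be tested. None of them passed an adjusted p of 0.05 in limma, 2 had an unadjusted p under 0.05, as 21.8% of all genes tested did, and limma voom called 0. In 5 the MT libraries lay wholly above WT (23.3% of all genes tested did) and in 1 wholly below (5.36% of all genes tested). Their log2 differences ran from -0.43 to 0.85 with a median of -0.10. The upper end belonged to Cs2g04190, at 0.433, 1.63 and 0.386 RPKM in MT1, MT2 and MT3, against 0.148, 0.136 and 0.0332 in WT1, WT2 and WT3.

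**Figure D4:**
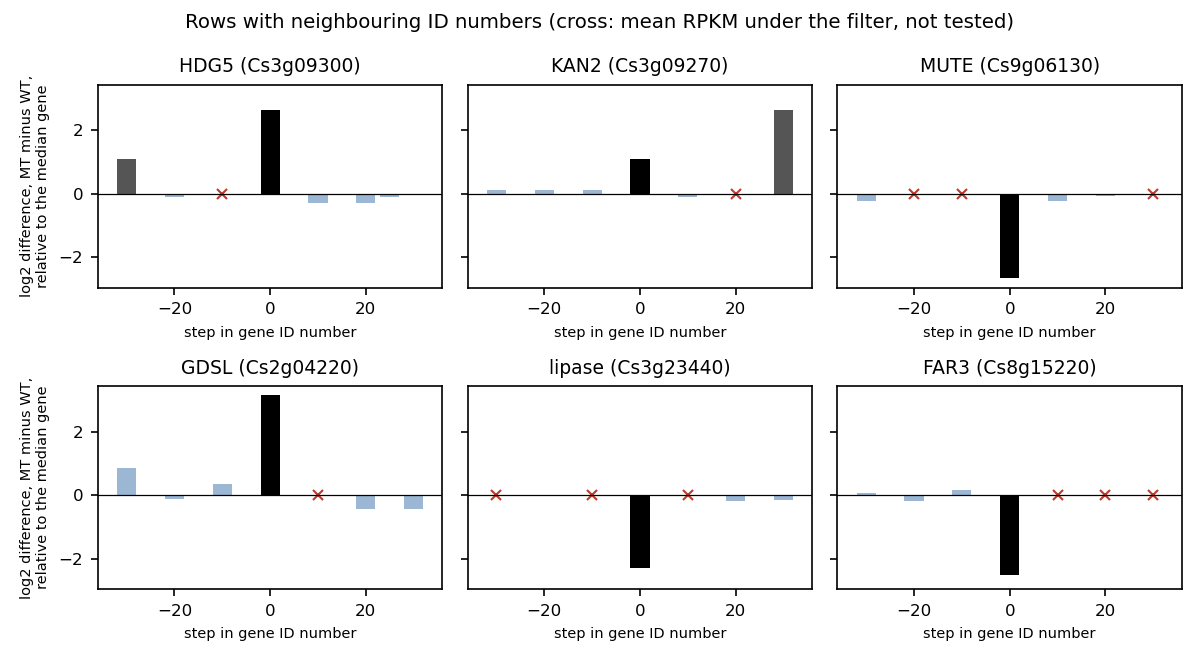
Difference of log2(RPKM + 0.5) between MT and WT relative to the median gene (vertical axis) against the step in identifier number from each of the 6 genes (horizontal axis, gene itself at 0 in black); dark grey bars are the other gene of the HDG5 and KAN2 pair, blue bars other tested rows and crosses rows too weak to be tested. The blue bars run from -0.43 to 0.85, while the black and dark grey bars belong to genes chosen for their difference and are no comparison for them.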

How the data were processed

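Poly(A) RNA of 6 pericarp libraries was sequenced as 100 bp single-end reads. The authors aligned cleaned reads to the sweet orange genome with TopHat 2.0.9 on an index of Bowtie 2.0.6, while the submitters' processing notes list Bowtie2 2.1.0. The deposited values are RPKM, computed by the authors from uniquely mapped reads on sweet orange gene models, and the read counter is not given in the sources used here. No sample column was left unused.

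Genes whose RPKM averaged 0.3 or more over the 6 libraries entered the test on log2(RPKM + 0.5). It was run in limma 3.58.1 (R 4.3.3, eBayes with an intensity trend, no block, Benjamini-Hochberg adjustment). The procedure was also run on simulated data in which all 6 libraries had the WT spread. That simulation does not cover the wider spread of the MT libraries. RPKM values are no input for a count model; the authors had run DESeq. From the spacing of RPKM values, whole reads could be computed for all 23454 genes above 0 in any library, to within 3.18e-05 reads, and they sum to 99.7% of each library total. Intervals from them cover counting error only. Precision is limited by these reads and by 3 libraries a group. Multiply mapped reads are missing from near-identical copies. Alternatives were other pseudocounts, filters, scalings and fits, a replicate block, and each library left out. Described genes were the 6 members, matches in the study's list of changed genes, rows within 30 identifier numbers and the 3 most correlated genes of each member. The members and lists were chosen with earlier results of these data known. Python 3.11.15 with pandas 2.3.3, scipy 1.17.1 and matplotlib 3.10.9 was used elsewhere.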

Additional observations from a re-analysis of the deposited data

How the results depend on the processing

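The direction of the 6 genes held in all 89 re-estimates. Nothing is read from this, because the genes were chosen for this difference and their libraries did not overlap. Of the re-estimates, 85 were within 1 SD of the libraries. The other 4 were the GDSL gene at 4.61 with a pseudocount of 0.1 and 5.49 in limma voom, and FAR3 at -4.20 with that pseudocount and -5.51 in voom; the cause was not tested. Left-out libraries gave 2.73 to 3.58 for the GDSL gene and -3.19 to -2.13 for FAR3. FAR3 was below the filter at a mean RPKM of 3. Of the 6 genes, 2 passed an adjusted p of 0.05, against 0 without a filter, 0 in voom and 5 at 0.1, and 0 to 5 with a library left out. Over all genes the count was 6 (3645 at an unadjusted p of 0.05), against 10 with a pseudocount of 0.1, 47 without a filter, 11 with median-ratio scaling, 15 without the trend, 0 in voom (3581 unadjusted), 427 at 0.1, and 0 to 864 with a library left out, the upper end without MT3 and the lower without any 1 of the WT libraries. The labels give same-numbered libraries no shared source, and their deviations from the genotype means correlated at -0.05, 0.19 and 0.16. Deviations from a mean of 3 libraries constrain each other, so these values cannot decide whether same-numbered libraries were paired. With the replicate block 122 genes and 4 of the 6 passed.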

Other observations

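The genes most like each of the 6 were ranked by Pearson's r of log2(RPKM + 0.5) over the 6 libraries, given without a p because the split into MT and WT sets much of it. The GDSL gene was closest to Cs5g04330, a match to a peptide/nitrate transporter (r = 0.999), at 100.01, 208.6 and 82.1 RPKM in MT1, MT2 and MT3, against 15.2, 30.01 and 14.1 in WT1, WT2 and WT3. The lipase match Cs3g23440 was closest to Cs2g21940, a match to the zinc finger protein CONSTANS-LIKE 14 (r = 0.994), at 2.99, 3.36 and 4.56 RPKM in the MT libraries and 13.5, 11.3 and 16.7 in the WT libraries. The closest genes to FAR3 were Cs3g21760, orange1.1t03941 and Cs8g14980. The study's list of changed genes named no match for orange1.1t03941, and no annotation was at hand for Cs3g21760 or Cs8g14980. Cs8g14980 was at 5.97, 8.89 and 9.27 RPKM in the MT libraries and 66.3, 19.8 and 78.4 in the WT libraries, with the same low WT2 as FAR3. An r above 0.95 was reached by 571 genes for HDG5, 570 for KAN2 and 607 for the GDSL gene, all higher in MT. It was reached by 51 for MUTE, 49 for FAR3 and 64 for Cs3g23440, all lower in MT. Of all genes tested, 3893 lay wholly higher and 896 wholly lower in MT, so nothing is read from this split. Of the other 19 epidermis, stomata, polarity and lipid genes, MT3 was the MT library nearest to WT in 15 and WT2 the WT library nearest to MT in 12.

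Deviations from the genotype means, correlated across the 16719 tested genes, which are not independent replicates, gave 0.19 between MT2 and WT2 and -0.29 between MT3 and WT2. They gave 0.16 between MT3 and WT1 and 0.16 between MT3 and WT3.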
